A study of Rattus norvegicus with 4 samples.

Results

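The insulin-like growth factor (Igf) axis was followed through 10 genes, chosen by symbol from the 15731 genes with deposited values: the ligands Igf1 and Igf2, the receptors Igf1r, Insr and Igf2r, the adaptors Irs1 and Irs2, and the binding proteins Igfbp3, Igfbp4 and Igfbp5. RNA was sequenced from ventricular cardiomyocytes of wild-type neonatal Wistar rats, labelled as postnatal day 1 (the protocol text gives day 0), that had been transfected with a synthetic miRNA mimic. The mimics were human miR-106b-5p, miR-93-5p and miR-25-3p, and the control was cel-miR-67, a worm miRNA. A mimic is a short RNA duplex that raises the level of the miRNA it copies. The labels give the dose as 25 nM in the treatment protocol and as 25 mM in the extract protocol, and the time from transfection to RNA as 72 h. The sources differ on that time, and a shorter time is also given. Atria were removed and the cells were preplated on plastic, a step that enriches cardiomyocytes without purifying them. Each of the 4 mimics has 1 library, and the labels do not say how many animals gave the cells. No difference between mimics therefore has a replicate check, and no p-value is given.

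Igf1 and Igf2 are secreted growth factors that bind the tyrosine kinase receptors encoded by Igf1r and Insr, and the activated receptors phosphorylate Irs1 and Irs2, which recruit PI3K and so activate AKT and mTOR. Igf2r has no kinase and carries Igf2 to lysosomes, while the secreted Igf binding proteins hold the ligands outside the cell and limit or prolong their action. In the heart the axis is known for its part in the growth and survival of cardiomyocytes, and Igf2 is expressed strongly in the fetal heart.

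The 3 miRNAs come from a single cluster, and a miRNA finds its targets mainly through its seed, bases 2 to 8 from the 5′ end. The mature rat sequences of RefSeq are printed because they show which mimics share a seed, which is in capitals. In the GRCr8 build they lie on the minus strand of chromosome 12, miR-106b at chr12:22157103-22157123, miR-93 at chr12:22156894-22156916 and miR-25 at chr12:22156652-22156673.
rno-miR-106b-5p: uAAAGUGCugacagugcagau
rno-miR-93-5p: cAAAGUGCuguucgugcagguag
rno-miR-25-3p: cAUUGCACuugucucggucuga
All 7 seed bases of miR-106b and miR-93 were identical, and 16 of their first 21 bases matched without gaps. The seed of miR-25 matched theirs at 3 of 7 positions. Sites for these seeds in the transcripts of the 10 genes were not analysed here.

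The values were RPKM, in which reads are divided by gene length and library size. Levels can so be set side by side between genes and between libraries, but a differing share of reads on listed genes is not corrected for. Reads on listed genes, recovered from the steps between the deposited values, numbered 15175185 after cel-miR-67, 18797234 after miR-106b, 16520057 after miR-93 and 16460108 after miR-25. Between 79 and 27108 reads stood behind each value of the 10 genes. A gene was called higher or lower where its RPKM was above 1.0 in both libraries and the ratio passed 1.3-fold, and all 10 genes met that minimum in all libraries. Brackets after a value give its 95% exact interval (Clopper-Pearson for a fold change, Poisson for a level), which covers counting error only and not the variation between cultures.

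After miR-106b, 4 of the 10 genes were higher and 1 was lower than after cel-miR-67, while 11.9% of 11296 tested genes were higher and 12.7% were lower. After miR-93, 5 were higher and 3 lower, while 15.1% of 11280 tested genes were higher and 15.6% lower. After miR-25, 2 were higher and 3 lower, while 19.3% of 11198 tested genes were higher and 22.6% lower. The shares among the 10 genes stood furthest above those of all genes for the higher calls after miR-106b and miR-93, and closest to them after miR-25. The 10 genes were chosen with earlier results of these data known, so this difference only describes them. Outside the 10, the binding protein Igfbp6 was lower with each mimic, with log2 fold changes of -0.68, -0.80 and -0.74, and Igfbp7 was not called. Their median log2 fold changes were 0.24, 0.10 and -0.08 in the same order, and the median over all tested genes was between -0.01 and 0.00 on this scale. All 3 comparisons share the control library. The share of a library that fell on listed genes differed, and scaling to those reads moved the median of all tested genes to 0.08, 0.14 and 0.14 on the log2 scale in the same order. Higher calls then made up 64.7%, 72.3% and 64.8% of all calls, against 48.2%, 49.2% and 46.1% as deposited, and the 10 genes gave 5 higher and 1 lower after miR-106b, 5 and 2 after miR-93, and 3 and 2 after miR-25.

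**Figure D1:**
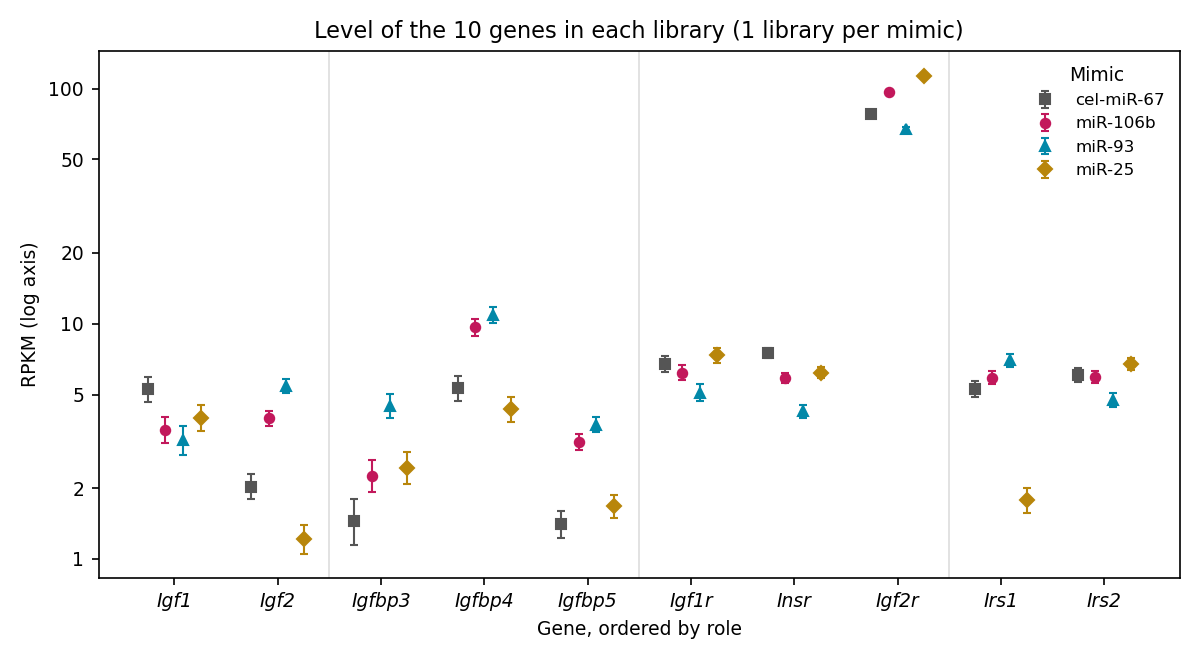
RPKM of the 10 genes in the 4 libraries on a log axis, 1 point per library with its 95% Poisson interval for counting error. Igf2r lies between 67.3 and 113 RPKM, apart from the other 9 genes, which lie between 1.22 and 10.9 RPKM, and Igf2 and Irs1 spread most widely between libraries.

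In the control library Igf2r was by far the most abundant of the 10 transcripts at 77.8 RPKM, above 95.8% of all listed genes. The signalling receptors and Irs2 followed, with Insr at 7.50 RPKM [7.12 to 7.90], Igf1r at 6.75 RPKM [6.24 to 7.30] and Irs2 at 6.05 RPKM [5.66 to 6.46]. The interval of Igf1r met that of Insr above it and that of Irs2 beneath it. Igfbp4 at 5.31 RPKM, Irs1 at 5.30 RPKM and Igf1 at 5.26 RPKM did not differ beyond counting error. Igf2 stood lower at 2.03 RPKM [1.80 to 2.29], and Igfbp3 at 1.45 RPKM [1.15 to 1.80] and Igfbp5 at 1.41 RPKM [1.23 to 1.60] were the lowest and had overlapping intervals. The levels of these 3 genes are close to the RPKM minimum, and under a minimum of 2.0 RPKM in both libraries Igfbp3 and Igfbp5 left every comparison with the control, and Igf2 and Irs1 left that of miR-25.

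The levels of marker genes of the cells such a culture can hold are given here because they moved between the same libraries. The summed RPKM of 9 cardiomyocyte markers was 19920 after cel-miR-67, 17970 after miR-106b, 13356 after miR-93 and 11883 after miR-25, so that the labelled cell type was present in every library. Without Myl2 the sums were 13082, 10747, 8362 and 8634 RPKM in the same order. After miR-106b 1 of these 9 markers was higher and 3 were lower, after miR-93 1 was higher and 4 lower, and after miR-25 all 9 were lower. The sum of 10 fibroblast markers was 1421 RPKM after cel-miR-67, 1184 after miR-106b, 1355 after miR-93 and 971 after miR-25, and 5, 5 and 7 of the 10 were lower after miR-106b, miR-93 and miR-25. No fibroblast marker was higher after miR-106b or miR-93, and 1 was higher after miR-25. Vim held a large part of these sums, and without it they were 835, 648, 751 and 334 RPKM in the same order. Smooth muscle and pericyte markers summed to 132 RPKM after cel-miR-67, 162 after miR-106b, 80.6 after miR-93 and 336 after miR-25. Of these, 1 was higher and 2 lower of 6 after miR-106b, none higher and 3 lower of 5 tested after miR-93, and 4 higher and 1 lower of 6 after miR-25. Most of the sum was Cnn1, and without it the sums were 43.2, 34.2, 35.0 and 57.5 RPKM. Epicardial markers summed to 27.9, 28.2, 36.6 and 36.7 RPKM in the same order of libraries, with 1 of 5 tested higher after miR-106b, 3 of 6 after miR-93, and 2 of 6 higher and 1 lower after miR-25. The lower one was Aldh1a2, named after its values were seen, with log2 fold changes of -0.08, 0.76 and -1.19. Also named so, the epicardial markers higher after miR-25 were Upk3b, with 0.40, 0.70 and 1.74, and Krt19, with 0.88 after miR-25. Without Msln the epicardial sums were 16.9 RPKM after cel-miR-67, 17.3 after miR-106b, 26.0 after miR-93 and 24.6 after miR-25. Macrophage markers summed to 19.3 RPKM after cel-miR-67, 15.8 after miR-106b, 17.8 after miR-93 and 12.7 after miR-25. Without Lyz2 these sums were 12.3, 12.8, 14.1 and 6.10 RPKM. Of 5 tested, 1 was lower after miR-106b, and 1 was higher and 1 lower after miR-93, while 3 of 4 tested were lower after miR-25. Endothelial markers summed to 8.56, 6.49, 6.80 and 5.75 RPKM in the same order, and without Egfl7 to 5.29, 4.48, 5.32 and 4.04 RPKM. Of 3 tested, 1 was higher with each mimic, and 2 were lower after miR-106b, 1 after miR-93 and 2 after miR-25. No marker was listed at 0 in any library, and the part of these cells in the results that follow was not tested. In bulk RNA, fewer cells of a type and less RNA per cell cannot be told apart.

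Igf1 was lower after every mimic, while Igf2 was higher after miR-106b and miR-93 and lower after miR-25. Igf1 (ENSRNOG00000004517), the ligand that growth hormone induces, was measured at 3.54 RPKM after miR-106b, 3.19 after miR-93, 3.99 after miR-25 and 5.26 after cel-miR-67. The control was the highest of the 4 libraries, and its interval met none of the others. The log2 fold change of Igf1 was -0.57 [-0.83 to -0.32] after miR-106b, -0.72 [-0.99 to -0.45] after miR-93 and -0.40 [-0.65 to -0.14] after miR-25, or 1.48-fold, 1.65-fold and 1.32-fold lower. The value after miR-25 was just past the 1.3-fold limit, and scaled to the reads on listed genes it was inside it, at -0.25, as it was with a pseudocount of 1 RPKM, at -0.33.

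Igf2 (ENSRNOG00000020369), the imprinted ligand of fetal growth, was measured at 3.96 RPKM after miR-106b, 5.42 after miR-93, 1.22 after miR-25 and 2.03 after cel-miR-67. No interval met another, and the libraries lay on both sides of the control. Igf2 was 1.95-fold higher after miR-106b (log2 fold change 0.96 [0.76 to 1.17]) and 2.67-fold higher after miR-93 (1.42 [1.22 to 1.62]), and it was 1.67-fold lower after miR-25 (-0.74 [-1.01 to -0.47]). After miR-93, 99.5% of all tested genes had a lower log2 fold change than Igf2, and after miR-25, 9.59% had. The 4.46-fold span between its highest and lowest library was the widest of the 10 genes. Summed over both ligands, the level was 7.29 RPKM after cel-miR-67, 7.51 after miR-106b, 8.62 after miR-93 and 5.21 after miR-25, so the sum moved less than Igf2 alone.

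The 3 binding proteins were all higher after miR-106b and after miR-93. Igfbp3 (ENSRNOG00000061910), the main carrier of Igf in serum, was measured at 2.26 RPKM after miR-106b, 4.47 after miR-93, 2.44 after miR-25 and 1.45 after cel-miR-67. The control was the lowest and miR-93 the highest library, and the miR-106b and miR-25 libraries lay alike between them. Igfbp3 was 1.56-fold higher after miR-106b (log2 fold change 0.64 [0.25 to 1.05]), 3.09-fold higher after miR-93 (1.63 [1.26 to 2.00]), the largest change of the 10 genes there, and 1.69-fold higher after miR-25 (0.75 [0.36 to 1.16]). Only 79 reads stood behind the control value, the fewest for any of the 10 genes, so these intervals are the widest.

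Igfbp4 (ENSRNOG00000010635), which binds Igf1 and Igf2 and in most settings inhibits them, was measured at 9.65 RPKM after miR-106b, 10.9 after miR-93, 4.33 after miR-25 and 5.31 after cel-miR-67. The first pair of libraries stood clear of the second pair. Igfbp4 was 1.82-fold higher after miR-106b (log2 fold change 0.86 [0.65 to 1.08]) and 2.06-fold higher after miR-93 (1.04 [0.83 to 1.25]). After miR-25 its log2 fold change was -0.29 [-0.55 to -0.04], which is below control by more than counting error and inside the 1.3-fold limit.

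Igfbp5 (ENSRNOG00000017206), which also binds the extracellular matrix, was measured at 3.14 RPKM after miR-106b, 3.72 after miR-93, 1.67 after miR-25 and 1.41 after cel-miR-67. Again the miR-106b and miR-93 libraries stood above the others. Igfbp5 was 2.23-fold higher after miR-106b (log2 fold change 1.15 [0.94 to 1.38]), the largest change among the 10 genes with that mimic, and 2.64-fold higher after miR-93 (1.40 [1.18 to 1.62]). After miR-25 its log2 fold change of 0.25 had an interval that reached from just under 0 to 0.50, and scaled to the reads on listed genes it was 0.39, just past the limit.

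Together Igfbp3, Igfbp4 and Igfbp5 gave 15.1 RPKM after miR-106b and 19.1 after miR-93, against 8.17 after cel-miR-67 and 8.44 after miR-25. The log2 ratio of these sums to the control was 0.88 after miR-106b, 1.23 after miR-93 and 0.05 after miR-25, while the log2 ratio of the fibroblast marker sums was -0.26, -0.07 and -0.55 in the same order, or -0.36, -0.15 and -1.32 without Vim. For the epicardial sums it was 0.01, 0.39 and 0.39, or 0.03, 0.62 and 0.54 without Msln. Igfbp3, Igfbp4 and Igfbp5 held only a small part of the binding protein RNA where Igfbp7 was counted. The other binding proteins followed here summed to 168 RPKM after cel-miR-67, 134 after miR-106b, 149 after miR-93 and 169 after miR-25. The log2 ratio of that sum to the control was -0.32, -0.17 and 0.01. Most of it was Igfbp7, at 159 RPKM after cel-miR-67, 129 after miR-106b, 144 after miR-93 and 164 after miR-25. The rest was Igfbp6, Igfbp2 and Igfals, at 7.34, 0.65 and 0.23 RPKM after cel-miR-67, where Igfbp3, Igfbp4 and Igfbp5 together gave 8.17.

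**Figure D2:**
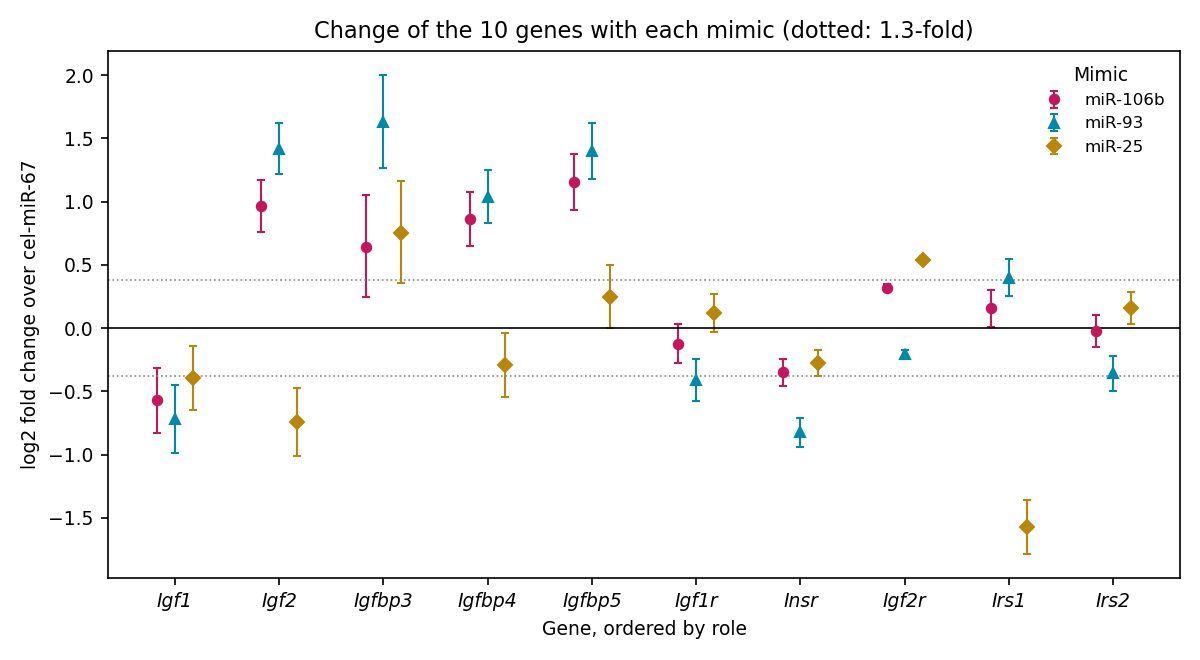
Log2 fold change of each gene over cel-miR-67 for the 3 mimics, with 95% exact intervals for counting error and dotted lines at 1.3-fold. Igf2, Igfbp4 and Igfbp5 lie between 0.86 and 1.42 after miR-106b and miR-93, and miR-25 sets Irs1 apart at -1.57.

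The 3 receptors spanned 1.44-fold to 1.77-fold between their highest and lowest libraries, against 2.52-fold to 3.09-fold for the binding proteins. Igf1r (ENSRNOG00000014187), the kinase receptor of both ligands, was measured at 6.20 RPKM after miR-106b, 5.09 after miR-93, 7.34 after miR-25 and 6.75 after cel-miR-67. Its log2 fold change was -0.41 [-0.57 to -0.24] after miR-93, or 1.33-fold lower, and inside the limit at -0.26 when scaled to the reads on listed genes and at -0.35 with a pseudocount of 1 RPKM. After miR-106b it was -0.12 [-0.28 to 0.03] and after miR-25 0.12 [-0.03 to 0.27], neither beyond counting error.

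Insr (ENSRNOG00000029986), the insulin receptor, which also binds Igf2 in its fetal isoform, was measured at 5.89 RPKM after miR-106b, 4.24 after miR-93, 6.20 after miR-25 and 7.50 after cel-miR-67. The control was the highest and miR-93 the lowest library. Insr was 1.77-fold lower after miR-93 (log2 fold change -0.82 [-0.94 to -0.71]), and 4.13% of all tested genes had a lower log2 fold change with that mimic. After miR-106b its log2 fold change was -0.35 [-0.45 to -0.24] and after miR-25 -0.27 [-0.38 to -0.17], both below 0 beyond counting error and inside the 1.3-fold limit. The isoforms of Insr cannot be told apart in these gene-level values.

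Igf2r (ENSRNOG00000014997), the receptor that clears Igf2, was measured at 97.1 RPKM after miR-106b, 67.3 after miR-93, 113 after miR-25 and 77.8 after cel-miR-67. With between 15494 and 27108 reads in a library, these were the most precise values of the 10 genes, and no interval met another. Igf2r was 1.46-fold higher after miR-25 (log2 fold change 0.54 [0.51 to 0.57]), and its log2 fold change was 0.32 [0.29 to 0.35] after miR-106b and -0.21 [-0.24 to -0.18] after miR-93. Scaled to the reads on listed genes, the value after miR-106b was 0.40, which is past the limit. The library with the highest Igf2r level was thus that with the lowest Igf2 level, and it was also that with the highest sum of smooth muscle and pericyte markers, with Cnn1 and without it. It also had the lowest cardiomyocyte, fibroblast, macrophage and endothelial sums. Without Myl2 the cardiomyocyte sum was lowest after miR-93, at 8362 RPKM, against 8634 after miR-25. The epicardial sum was 36.7 RPKM after miR-25 and 36.6 after miR-93. After miR-106b, Igf2r and Igf2 were both above the control, with log2 fold changes of 0.32 and 0.96. A link between these levels was not tested.

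Irs1 was far lower after miR-25, and Irs2 was not. Irs1 (ENSRNOG00000014597), the docking protein that links the receptors to PI3K, was measured at 5.90 RPKM after miR-106b, 6.99 after miR-93, 1.78 after miR-25 and 5.30 after cel-miR-67. Irs1 was 2.97-fold lower after miR-25 (log2 fold change -1.57 [-1.79 to -1.36]), the largest change of the 10 genes with that mimic, and 1.25% of all tested genes had a lower log2 fold change. It was 1.32-fold higher after miR-93 (0.40 [0.26 to 0.54]), which a pseudocount of 1 RPKM brought inside the limit at 0.34, and its log2 fold change after miR-106b was 0.16 [0.01 to 0.30]. The log2 ratio of the summed cardiomyocyte markers to the control was -0.15 after miR-106b, -0.58 after miR-93 and -0.75 after miR-25. Without Myl2 it was -0.28, -0.65 and -0.60 in the same order. A link between these sums and Irs1 was not tested.

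Irs2 (ENSRNOG00000023509), the related adaptor, was measured at 5.97 RPKM after miR-106b, 4.72 after miR-93, 6.75 after miR-25 and 6.05 after cel-miR-67. It passed 1.3-fold with no mimic and had the narrowest span of the 10 genes, 1.43-fold. Its log2 fold change was -0.02 [-0.15 to 0.11] after miR-106b, -0.36 [-0.49 to -0.22] after miR-93 and 0.16 [0.03 to 0.28] after miR-25. The summed level of Irs1 and Irs2 was 11.3 RPKM after cel-miR-67, 11.9 after miR-106b, 11.7 after miR-93 and 8.53 after miR-25.

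The mimic libraries were also compared directly, in 3 pairs, without the control. Between miR-93 and miR-106b, which share their seed, 2 genes were higher and 2 lower after miR-93, while 7.3% of 11391 tested genes were higher and 8.21% lower. Igfbp3 was 1.98-fold higher after miR-93 than after miR-106b (log2 fold change 0.98 [0.70 to 1.27]) and Igf2 was 1.37-fold higher (0.45 [0.31 to 0.60]). Igf2r was 1.44-fold lower after miR-93 (-0.53 [-0.56 to -0.50]) and Insr was 1.39-fold lower (-0.47 [-0.59 to -0.36]). The other 6 genes stayed within 1.3-fold, and of these the interval of Igf1 held 0, with a log2 fold change of -0.15 [-0.43 to 0.12].

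Between miR-25 and miR-106b, 4 genes were lower after miR-25 and none of the 10 was higher, while 23% of 11183 tested genes were lower and 22.1% higher. The 4 genes were Irs1, which was 3.31-fold lower (log2 fold change -1.73 [-1.93 to -1.53]), Igf2, which was 3.26-fold lower (-1.71 [-1.94 to -1.47]), Igfbp4, which was 2.23-fold lower (-1.16 [-1.37 to -0.94]), and Igfbp5, which was 1.88-fold lower (-0.91 [-1.10 to -0.72]). Igfbp3 had a log2 fold change of 0.11 [-0.22 to 0.43] and Insr of 0.08 [-0.03 to 0.18] in this pair.

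Between miR-25 and miR-93, 5 genes were lower and 4 higher after miR-25, while 23% of 11198 tested genes were lower and 22.1% higher. Igf2 was 4.46-fold lower after miR-25 (log2 fold change -2.16 [-2.39 to -1.93]), Irs1 was 3.92-fold lower (-1.97 [-2.17 to -1.77]), and the binding proteins Igfbp3, Igfbp4 and Igfbp5 were 1.83-fold, 2.52-fold and 2.22-fold lower. The 3 receptors and Irs2 were higher after miR-25, by 1.68-fold for Igf2r, 1.46-fold for Insr, 1.44-fold for Igf1r and 1.43-fold for Irs2. Igf1 was inside the limit, with a log2 fold change of 0.32 [0.05 to 0.60].

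Ratios of RPKM inside a library do not depend on the size of that library. The ratio of Igf2 to Igf1 was 0.386 [0.325 to 0.458] after cel-miR-67, 1.12 after miR-106b, 1.70 [1.46 to 1.99] after miR-93 and 0.304 [0.251 to 0.369] after miR-25. Igf1 was thus the more abundant ligand after cel-miR-67 and miR-25, Igf2 was after miR-93, and after miR-106b they did not differ beyond counting error. The ratio of Irs1 to Irs2 was 0.875 [0.790 to 0.970] after cel-miR-67, 0.989 [0.906 to 1.08] after miR-106b, 1.48 [1.35 to 1.62] after miR-93 and 0.264 [0.230 to 0.302] after miR-25.

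The receptors kept a closer balance. Insr was 1.11-fold above Igf1r after cel-miR-67, and the ratio of Igf1r to Insr was 1.05 after miR-106b, 1.20 after miR-93 and 1.18 after miR-25, a narrower range than that of the ligands or the adaptors. Igfbp4 was the most abundant of the 3 binding proteins in every library, and the ratio of Igfbp3 to Igfbp4 was 0.273 [0.209 to 0.352] after cel-miR-67, 0.234 after miR-106b, 0.410 after miR-93 and 0.563 [0.459 to 0.688] after miR-25.

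**Figure D3:**
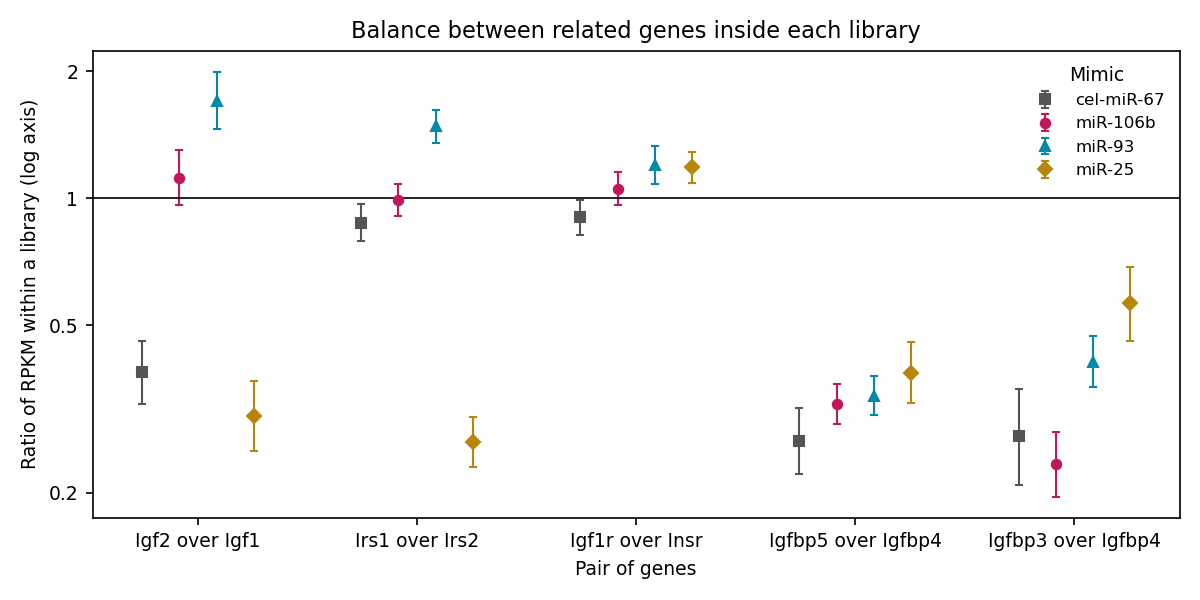
Ratio of the RPKM of 2 related genes within each library, on a log axis with 95% exact intervals for counting error. Igf2 over Igf1 spans 0.304 to 1.70 and Irs1 over Irs2 spans 0.264 to 1.48, and the miR-93 library is highest and the miR-25 library lowest in both.

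Around the 10 genes, 12 lists of pathway genes held 102 further genes, of which 93 were found under a single symbol and 81 had RPKM above 1.0 in both libraries in each comparison. Of these 81, 12 were higher and 6 lower after miR-106b (14.8% and 7.41%), 20 were higher and 10 lower after miR-93 (24.7% and 12.3%), and 21 were higher and 18 lower after miR-25 (25.9% and 22.2%). Over all tested genes the shares were 11.9% and 12.7%, 15.1% and 15.6%, and 19.3% and 22.6%, so that the lower calls after miR-25 were close to those of all genes. Their median log2 fold changes were 0.03, 0.08 and 0.06. Scaled instead to the reads on listed genes, they gave 13 higher and 5 lower after miR-106b, 32 and 6 after miR-93, and 34 and 11 after miR-25.

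Of the other receptors in the lists only Lrp1, a scavenger receptor, was tested, and it stayed within 1.3-fold after each mimic. Of 2 further binding proteins tested, Igfbp7 was not called, and Igfbp6, which prefers Igf2 as its ligand, was lower with each mimic, with log2 fold changes of -0.68 after miR-106b, -0.80 after miR-93 and -0.74 after miR-25. Among the proteases that cleave Igf binding proteins and their inhibitors, 3 genes were tested, and 1 was lower after miR-106b, 1 higher and 1 lower after miR-93, and 1 higher and 2 lower after miR-25. The stanniocalcins Stc1 and Stc2, which inhibit the binding protein protease PAPP-A, had the largest values of this list. Stc1 had a log2 fold change of -1.43 [-1.54 to -1.33] after miR-106b and -2.01 [-2.14 to -1.89] after miR-93, and Stc2 had -1.85 [-2.36 to -1.36] after miR-25. The pair did not move alike, since Stc2 was higher after miR-93, at 0.40 [0.09 to 0.71], and was not called after miR-106b. Stc1 had -0.61 [-0.70 to -0.52] after miR-25. Pappa, the gene of PAPP-A, was not tested, at 0.27 RPKM after cel-miR-67, 0.69 after miR-106b, 0.80 after miR-93 and 0.88 after miR-25.

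Of 8 adaptors and receptor regulators, 1 was higher and 1 lower after miR-106b, 3 higher and none lower after miR-93, and 3 higher and 2 lower after miR-25, where scaling to the reads on listed genes gave 5 higher and 1 lower. Socs3, which blocks cytokine and insulin receptor signals, had a log2 fold change of -0.58 after miR-106b. Gab1, a docking protein, had 0.72 after miR-93, and Grb14, which inhibits the insulin receptor, had -0.89 after miR-25. Of the 3 genes for proteins that bind Igf2 mRNA, Igf2bp1 was called, with a log2 fold change of 0.42 [0.15 to 0.69] after miR-25, and all 3 were called higher after miR-25 when scaled to the reads on listed genes.

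In the PI3K and AKT list, 16 genes were tested, and 2 were higher and 2 lower after miR-106b, 1 higher and 6 lower after miR-93, and 3 higher and 4 lower after miR-25. Scaled to the reads on listed genes, 5 were higher and 3 lower after miR-93, and 4 higher and 2 lower after miR-25. Pik3r1, the main regulatory subunit of PI3K, had a log2 fold change of -0.84 [-0.96 to -0.72] after miR-106b. Pik3ca, a catalytic subunit, had -0.85 [-0.91 to -0.78] after miR-93, and Pik3cd, another, had 1.40 [1.15 to 1.67] after miR-25. In the mTOR branch, 3 of 15 genes were higher after miR-106b and 3 after miR-93 and none was lower, while 2 were higher and 4 lower after miR-25. That scaling gave 6 higher and none lower after miR-93, and 4 higher and 1 lower after miR-25. The kinase gene Mtor had a log2 fold change of 0.60 after miR-106b, its inhibitor Deptor had 0.54 after miR-93, and Rps6kb1, the S6 kinase downstream of it, had -1.03 [-1.17 to -0.89] after miR-25.

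In the RAS and ERK branch, 1 of 12 genes was higher after miR-106b, 1 after miR-93 and 4 after miR-25, and none was lower, and with that scaling 3 were higher after miR-93 and 6 after miR-25. Of 10 FoxO factors and target genes, which AKT signalling represses, 1 was lower and none higher after miR-106b, and 4 were higher and 1 lower after miR-93 and again after miR-25. With that scaling 1 was higher and none lower after miR-106b. Foxo4 had a log2 fold change of -0.38 after miR-106b, just past the limit as deposited and inside it when scaled to the reads on listed genes, the stress gene Sesn1 had 0.89 after miR-93, and the cyclin gene Ccng2 had 1.28 after miR-25.

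Of 5 genes of insulin-responsive glucose transport, 2 were higher and none lower after miR-106b, 3 higher and 1 lower after miR-93, and 1 higher and 2 lower after miR-25. With that scaling none was lower after miR-93, and 2 were higher and 2 lower after miR-25. Slc2a1, the basal glucose transporter, had a log2 fold change of 0.82 after miR-106b and 0.60 after miR-93, and Slc2a4, the transporter that insulin moves to the cell surface, had -0.98 [-1.15 to -0.81] after miR-25. Among imprinted growth genes other than Igf2, 6 were tested. Of these, 3 were higher and none lower after miR-106b, 4 higher and none lower after miR-93, and 2 higher and 2 lower after miR-25, which became 3 and 1 with that scaling. Cdkn1c, an imprinted inhibitor of the cell cycle, had log2 fold changes of 1.77 [1.47 to 2.09] after miR-106b and 2.72 [2.42 to 3.02] after miR-93, and Mest had -1.73 [-1.95 to -1.51] after miR-25. The antisense and overlapping transcripts of such imprinted loci cannot be separated here, since the sources used do not say whether strand was counted.

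**Figure D4:**
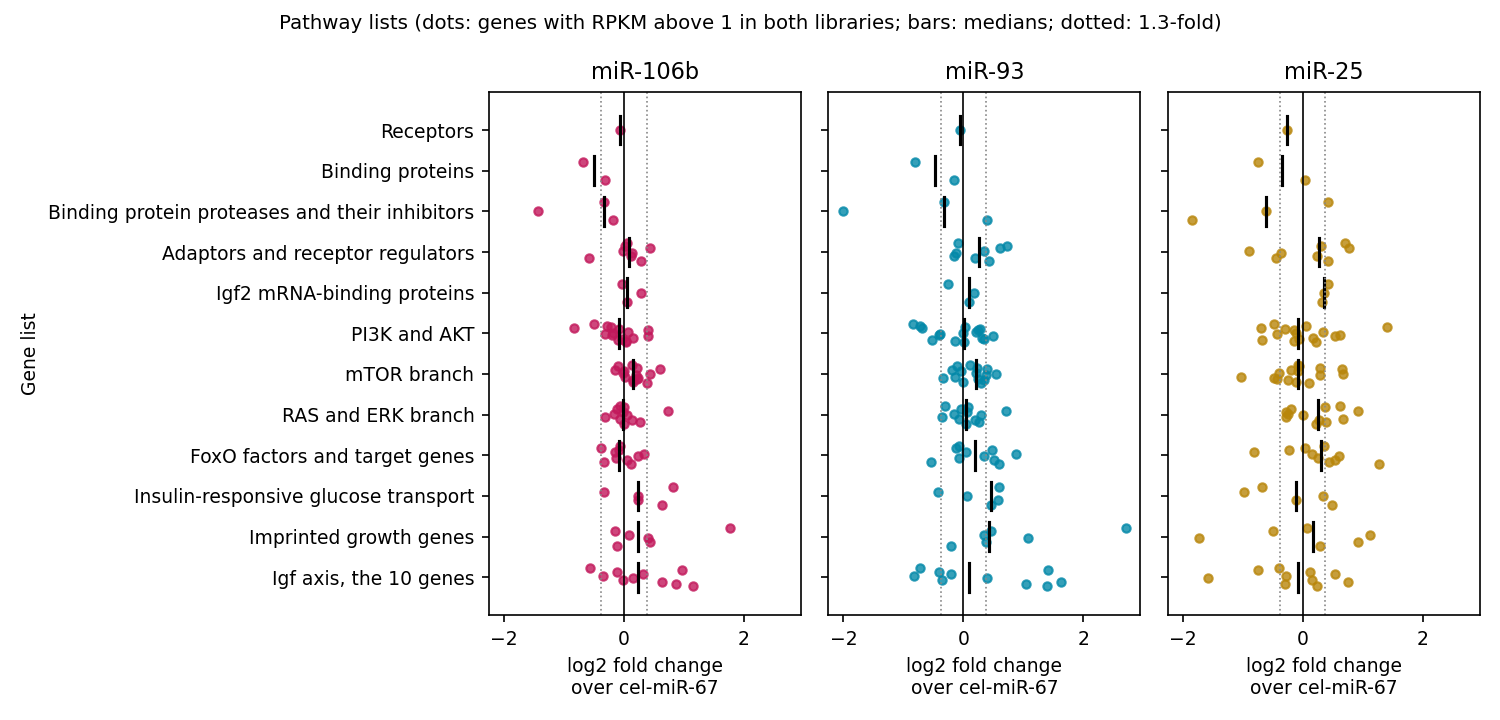
Log2 fold changes over cel-miR-67 of the pathway genes, grouped by list, and of the 10 genes in the lowest row, in a panel per mimic. Each dot is a gene with RPKM above 1.0 in both libraries, bars are medians and dotted lines mark 1.3-fold, and the 10 genes have medians of 0.24, 0.10 and -0.08.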

How the data were processed

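The authors checked reads with FASTQC, trimmed them with Cutadapt, used STAR 2.7 for alignment to the rat build Rnor 6.0, and deposited RPKM values computed with edgeR's rpkm function; the counting program, gene lengths and strand setting are not given in the sources used here. The values for each sample were identical to those of the series table. Whole reads were recovered from the steps between RPKM values for all 15731 genes, and the procedure was tested on simulated data. The simulation used the gene lengths and library sizes recovered here, so it is no independent check of the read scale. All intervals rest on that scale. The paper's methods state fewer reads per sample than were recovered, and this difference was not resolved. Reads on listed genes made up between 60.4% and 66.9% of a library. Fold changes are ratios of RPKM without a pseudocount. The cutoffs, RPKM above 1.0 and 1.3-fold, follow the study's results text, and its methods give RPKM above 2.0. With 1 library per mimic no test of conditions was run. Named pathway genes are, for each list and mimic, the called gene with the largest absolute log2 fold change, and every called binding protein and receptor. Some genes that these rules select are left unreported. Stc2 after miR-93, Stc1 after miR-25 and Pappa were named outside them. Members, lists and rules were chosen with earlier results of these data known. Alternatives were RPKM minimums of 2.0 in both libraries, 1.0 in either or none, fold limits of 1.5 and 2, pseudocounts of 0.1 and 1 RPKM, centring on the median gene, and scaling to reads on listed genes. Not found under a single symbol were Ins1, Ins2, Insrr, Igfbp1, Irs4, Grb2, H19, Meg3 and Gnas among pathway genes and Ttn and Pecam1 among markers. miRNA sequences came from RefSeq. Scripts ran in Python 3.11.15 on pandas 2.3.3 and numpy 2.4.6, with intervals from scipy 1.17.1 and plots from matplotlib 3.10.9.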

Additional observations from a re-analysis of the deposited data

How the results depend on the processing

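Of 120 log2 fold changes of the 10 genes recomputed with pseudocounts or another scaling, 104 stayed within their interval, 16 moved beyond it and none changed sign among called values; 8 of the 16 came with a pseudocount of 1 RPKM and 8 with scaling to the reads on listed genes. The pseudocount of 1 RPKM ended the calls of Igf1r and Irs1 after miR-93 and of Igf1 after miR-25. With an RPKM minimum of 2.0, the higher genes of the 10 were 2 after miR-106b, 3 after miR-93 and 1 after miR-25, and the lower genes after miR-25 were 1, since fewer were tested. At 1.5-fold, none was lower after miR-106b and 1 was higher after miR-25, and the other pathway genes gave 5 higher and 3 lower after miR-106b, 8 and 5 after miR-93, and 13 and 11 after miR-25. At 2-fold, 1 of the 10 was higher and 0 lower after miR-106b, 0 lower after miR-93, and 0 higher and 1 lower after miR-25, and the other pathway genes gave 1 and 1, 2 and 1, and 3 and 3. No share of all tested genes is given for these other cutoffs. The counts at them therefore cannot be set against all genes. Scaling to the reads on listed genes added 0.08, 0.15 and 0.15 to the log2 values in the mimic order above. It gave 5 higher and 1 lower of the 10 after miR-106b, 5 and 2 after miR-93, and 3 and 2 after miR-25, where Igf2r after miR-106b and Igfbp5 after miR-25 became higher and Igf1r after miR-93 and Igf1 after miR-25 left the lower calls. The other pathway genes then gave 32 higher and 6 lower after miR-93 and 34 and 11 after miR-25. With the same scaling all tested genes gave 1882 higher and 1026 lower after miR-106b, 2836 and 1089 after miR-93, and 3284 and 1782 after miR-25. All other counts, under these and the remaining alternatives, stayed within 1.5 times. The sums of marker lists without their most abundant gene were added after seeing the data. No paired analysis was possible because each mimic has 1 library. Depth limits Igfbp3 most, with 79 control reads.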

Other observations

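Among 4170 genes above 10 RPKM in all libraries, those whose 3 log2 fold changes lay nearest to those of a gene of the axis were sought by Euclidean distance, for the gene with the largest change with each mimic. Because all 3 values share the control, the likeness is a description over 3 mimics and has no test. Nearest to Igfbp5 were Got1 (distance 0.39), Chpt1 (0.44) and Apoe (0.47). Apoe, the lipid carrier, had log2 fold changes of 1.25 after miR-106b, 1.75 after miR-93 and -0.05 after miR-25, beside 1.15, 1.40 and 0.25 for Igfbp5. Nearest to Igfbp3 were the taurine transporter Slc6a6 (0.44), Arf3 (0.54) and Psen2 (0.58). Slc6a6 had 0.92, 1.29 and 0.79, beside 0.64, 1.63 and 0.75 for Igfbp3. Nearest to Irs1 were Isca1 (0.22) and a locus with a clone name (0.30). Isca1, an iron-sulfur cluster assembly factor, had 0.16, 0.28 and -1.38, beside 0.16, 0.40 and -1.57 for Irs1.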
